A study of Mus musculus with 5 samples.

Results

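Tbx3, Prdm14, Esrrb, Klf2, Klf4, Klf5, Tfcp2l1, Nr0b1, Tcl1 and Zfp42 are genes of the regulatory network that holds mouse embryonic stem cells (ESCs) in the naive state. They were taken by name from the platform annotation of the array, each by its brightest probe set with exactly 1 gene symbol, and all 10 were found, among 19938 genes so named. Each had 1 such probe set, a group of short probes spread along the gene. RNA of 5 cell populations was measured on whole-transcript mouse arrays of Affymetrix (Gene 1.0 ST). Parental ESCs were the B6CBAF1 line (C57BL/6 mother, CBA/ca father) before injection (1 array). The ESC-like cells came from cultures of teratomas that formed under the skin within 5 weeks, after ESCs alone were injected into B6CBAF1 recipients (homologous, 1 array) or into B6D2F1 recipients (heterologous, 1 array), or after B6CBAF1 ESCs were injected into B6D2F1 recipients mixed with mouse fetal fibroblasts (MFF) of B6D2F1 (co-injection, 2 arrays, batch 1 and batch 2). All populations were cultured on inactivated ICR fetal fibroblasts in serum with leukemia inhibitory factor (LIF). The heterologous injections of ESCs alone gave a single teratoma, so that array stands for 1 line, and the age of the recipients is not given in the sources used here.

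In the naive state, LIF acts through STAT3, and Wnt signals through relief of repression by TCF7L1, to keep a set of transcription factors switched on together. KLF4, KLF5 and TFCP2L1 are known as targets of LIF and STAT3, and ESRRB as a gene that TCF7L1 holds down. TBX3 is linked to the phosphoinositide 3-kinase branch of LIF signaling, and PRDM14 keeps fibroblast growth factor receptors and the de novo DNA methyltransferases low. When ESCs move toward the primed state of the postimplantation epiblast, these factors decline while Oct-4 (Pou5f1) and Sox2 are kept. Of the 10 genes, Tcl1 encodes a coactivator of AKT kinases and not a transcription factor.

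The heterologous array stood apart in its fibroblast markers. Of 15 such genes 11 were above parental ESCs there by over 2-fold, where 3.98% of all named genes were. The 15 had a median difference of 1.71 on the log2 scale, led by Postn (3.30) and Pdgfrb (3.10). Their summed level on the linear scale was 16370 in that array, 4559 in parental ESCs, 6563 in the homologous array and 4188 and 4349 in the co-injection arrays. Lum was below the 25th percentile of its array in all 5 and Fap in all but the heterologous one. By contrast, the 8 ESC markers outside the 10 genes all stayed within 2-fold of parental ESCs, with a summed level from 41290 in the heterologous array to 49820 in parental ESCs, and Pou5f1 lay between 12.29 and 12.60 on the 5 arrays. The part of fibroblasts in the values of the heterologous array was not tested, and in bulk RNA fewer ESC-like cells and less RNA of a gene per cell cannot be told apart. In the homologous array Mmp2 (1.91) and Pdgfrb (1.31) were also more than 2-fold higher, and in the co-injection mean Mmp2 was higher (1.25) and Thy1 lower (−1.12). Among markers of other cell types, Dab2 of the primitive endoderm was more than 2-fold higher and Sox7 more than 2-fold lower in each of the 3 kinds of ESC-like cells, and Lama1 of the same list was lower in the homologous (−1.15) and heterologous (−1.03) arrays. Cd68, 1 of 5 macrophage genes, was 2-fold lower or more in the homologous array, while Adgre1 and Ptprc were below the 25th percentile on all arrays. The 5 trophoblast, 4 endothelial and 7 housekeeping genes stayed within 2-fold of parental ESCs, as did 92.7% of all named genes in all 4 ESC-like arrays.

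All 10 genes were lower in every ESC-like array than in the parental array, and the parental array was the highest of the 5 for each of them. Over all named genes 23.6% were below parental ESCs in all 4 ESC-like arrays, and among the 11600 named genes whose mean lay above the median of all values (7.49), where the 10 genes belong, 29.6%. The parental array was the highest of the 5 for 24.6% and 29.9% of these sets. The heterologous array was the lowest of the 5 for 9 of the 10 genes, with Tbx3 as the exception, against 36.8% of all named genes and 33.1% of those above the median value. On the log2 scale the median difference of the 10 genes from parental ESCs was −0.93 for the homologous array, −1.53 for the heterologous one and −0.73 for the mean of the co-injection arrays (−0.82 in batch 1 and −0.62 in batch 2). Over all named genes these medians were −0.01, −0.04 and 0.04. The parental array stands alone and enters all of these differences, so the 3 comparisons share it, and neither it nor the homologous or heterologous array has a replicate. The differences are therefore given without a p-value, and the calls of a limma fit stand apart from them.

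**Figure D1:**
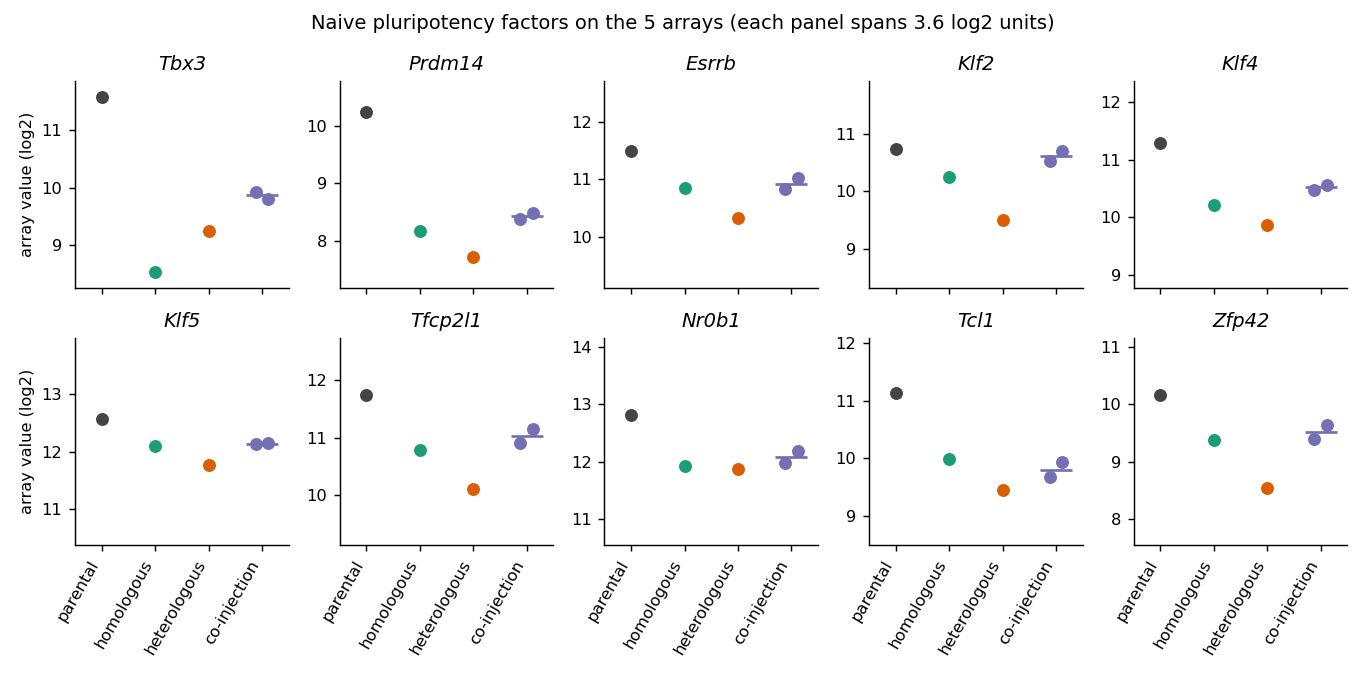
Array values (log2, vertical axis) of the 10 genes in parental ESCs, homologous, heterologous and co-injection ESC-like cells (horizontal axis); points are arrays and the line is the mean of the co-injection pair. The parental point is the highest in every panel, and the heterologous point is the lowest in every panel but that of Tbx3.

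The limit for a changed gene in the study was 2-fold, or 1 in log2 units. By it 4 of the 10 genes were lower in the homologous array, where 1.6% of all named genes were, 8 in the heterologous array, where 1.95% were, and 3 in the co-injection mean, where 1.44% were. Among named genes above the median value the shares were 1.97%, 2.61% and 1.84%. In each co-injection array alone the same 3 genes passed, with 1.51% and 1.44% of all named genes in batch 1 and 2. None of the 10 was more than 2-fold higher, which 1.45%, 3.98% and 0.647% of all named genes were in homologous, heterologous and co-injection cells. Tbx3, Prdm14 and Tcl1 were more than 2-fold lower in all 4 ESC-like arrays, a pattern shared by 0.868% of all named genes and 1.03% of those above the median value. Klf5 and Nr0b1 stayed within 2-fold of parental ESCs in all 4, as did 92.7% and 90.3% of these sets. The 2 co-injection arrays differed from each other by 0.02 (Klf5) to 0.25 (Tcl1) for these genes. Differences from parental ESCs were larger than that widest gap of the pair for all 10 genes in the homologous and heterologous arrays. In the co-injection mean they were for 9, Klf2 being the one inside it. The share of all named genes past that gap was not counted, so these counts are not set against other genes. At 1.5-fold either way 8, 10 and 7 of the 10 genes passed in homologous, heterologous and co-injection cells, against 9.51%, 13.2% and 6.91% of all named genes, and at 3-fold 2, 5 and 2, against 0.792%, 2.23% and 0.542%. A limma fit over all 5 arrays, whose spread rests on the co-injection pair alone (1 residual degree of freedom), put none of the 10 genes and 0 of 35556 probe sets past an adjusted p of 0.05 in any comparison (0.0%). At an unadjusted p of 0.05, 7, 10 and 6 of the 10 passed in homologous, heterologous and co-injection cells against parental ESCs, where 23.5%, 26.8% and 23.6% of all probe sets did. Between ESC-like cells 6 passed for heterologous against homologous, 7 for co-injection against heterologous and 2 for co-injection against homologous, with 20.6%, 26.7% and 15.0% of probe sets.

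Tbx3, a T-box repressor and activator that can sustain ESC self-renewal when LIF is low, and Prdm14, a PR-domain protein of the naive epiblast and of primordial germ cells, stood farthest from parental ESCs. Tbx3 had a value of 11.58 in the parental array, 8.54 in the homologous array, 9.25 in the heterologous array and 9.93 and 9.81 in co-injection batch 1 and 2. The homologous array was therefore 8.23-fold lower than parental ESCs, the heterologous array 5.01-fold and the co-injection mean 3.27-fold (log2 difference −1.71). The SD of the co-injection pair was 0.09 (n = 2), which holds no spread of the lone parental array. Tbx3 was the only one of the 10 genes with its lowest value in the homologous array. Prdm14 measured 10.24 in parental ESCs, 8.17 in the homologous array, 7.71 in the heterologous array and 8.37 and 8.48 in the co-injection arrays. The log2 difference of the homologous array was −2.07, the heterologous array was 5.78-fold lower and the co-injection mean 3.51-fold, with no ESC-like array near the parental value.

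Tcl1 came next. Its values were 11.13 in parental ESCs, 9.99 in the homologous array, 9.45 in the heterologous array, and 9.67 and 9.93 in the co-injection arrays, so the ESC-like cells were 2.21-fold, 3.21-fold and 2.51-fold lower. The homologous value lay 0.19 above the co-injection mean, within the gap of the pair.

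Klf2, Klf4 and Klf5 are Krüppel-like factors, which share a zinc finger DNA-binding domain and can stand in for each other in ESCs. Of these 3, Klf4 had the largest difference in each comparison with parental ESCs. Klf4 had 11.28 in parental ESCs, 10.21 in the homologous array, 9.86 in the heterologous array, and 10.48 and 10.55 in the co-injection arrays, or 2.11-fold, 2.69-fold and 1.70-fold lower. Klf2, whose protein is destabilized by MEK and ERK signaling, was at 10.74, 10.25 and 9.49 in the parental, homologous and heterologous arrays, and at 10.53 and 10.71 in the co-injection arrays. Only the heterologous array stood more than 2-fold away (2.38-fold lower), and co-injection batch 2 was 0.04 below parental ESCs. Klf5 had the smallest range of the 10 genes, 0.80 from 12.57 in parental ESCs to 11.78 in the heterologous array, with 12.10 in the homologous and 12.13 and 12.16 in the co-injection arrays. Klf2, Klf4, Klf5 and Tbx3 are known to be expressed also in fibroblasts and other somatic cells.

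Esrrb, an orphan nuclear receptor, and Tfcp2l1, a grainyhead-family factor, are the hubs through which Wnt and LIF signals reach the network. Esrrb was 11.50 in parental ESCs, 10.86 in the homologous array, 10.32 in the heterologous array, and 10.82 and 11.03 in the co-injection arrays. Only the heterologous array passed 2-fold (2.26-fold lower), and the homologous array and the co-injection mean differed by 0.07. Tfcp2l1 followed the same order with wider steps: 11.75 in parental ESCs, 10.78 in the homologous array, 10.11 in the heterologous array, and 10.92 and 11.15 in the co-injection arrays. Its heterologous value was 3.11-fold lower than the parental one, and its homologous value, 1.96-fold lower, fell just short of the limit.

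Nr0b1 (Dax1), an X-linked nuclear receptor without a DNA-binding domain that acts as a corepressor, was 12.82 in parental ESCs and nearly level in the homologous (11.93) and heterologous (11.88) arrays and in the co-injection arrays (11.97 and 12.18). The difference of 0.05 between homologous and heterologous cells was inside the gap of the co-injection pair. Zfp42 (Rex-1), a zinc finger gene much used as a reporter of the naive state, was 10.16 in parental ESCs, 9.38 in the homologous array, 8.53 in the heterologous array, and 9.40 and 9.63 in the co-injection arrays. The heterologous array was 3.09-fold lower than parental ESCs, and the homologous array differed from the co-injection mean by less than the gap of the pair.

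**Figure D2:**
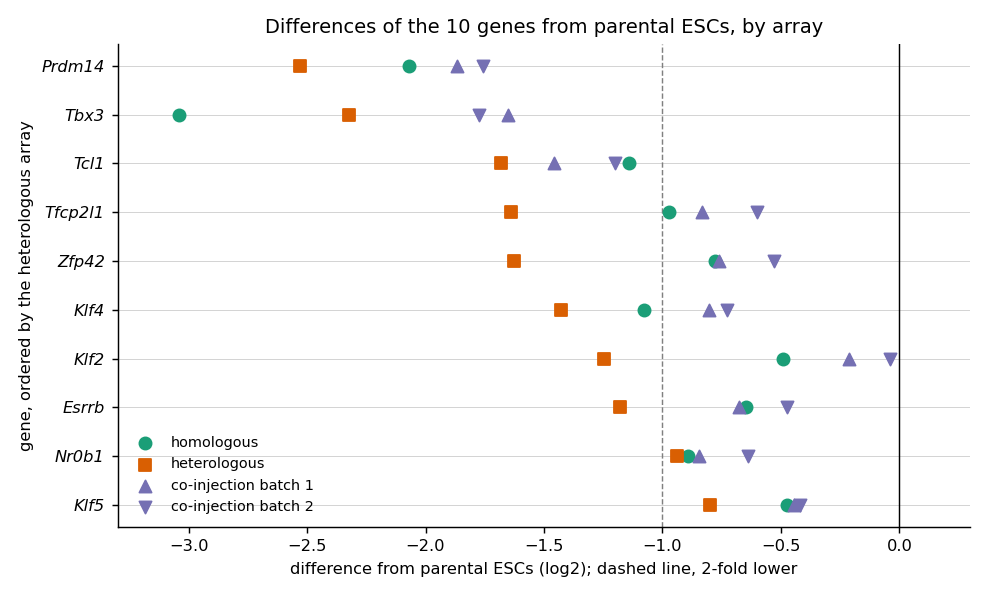
Difference of each ESC-like array from parental ESCs (log2, horizontal axis) for the 10 genes (vertical axis, ordered by the heterologous array); symbols are arrays and the dashed line marks 2-fold lower. All points lie left of 0, with Tbx3 of the homologous array farthest out at −3.04 and Klf2 of co-injection batch 2 nearest to 0 at −0.04.

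Promoter windows of GRCm38.p6 (RefSeq), from 250 bases before to 50 after the gene start, were available for 7 of the 10 genes, with 2 for Esrrb. They were searched on both strands for the KLF motif GGGTGTGG, the ESRRB motif AAGGTCA, the STAT motif TTCNNNGAA, the octamer ATGCAAAT, the T-box motif AGGTGTGA and a TFCP2L1-type pair of CCAG repeats 6 bases apart. These windows held 55.3% to 74.3% G and C, against a median of 52.7% over all windows, with Klf4 (74.3%, 40 CpG) and Klf2 (69.3%, 32 CpG) at the top. The windows of Zfp42 and the first of Esrrb held a match, and they are shown because the factors that read these letters are members or inputs of the same network. The upstream 250 bases of Zfp42 (chr8:43307010-43307259, minus strand) hold the octamer, known as an Oct-4 site of this promoter, 186 bases before the gene start, and the KLF motif 75 bases before it. The upstream 250 bases of the first Esrrb window (chr12:86360867-86361116, plus strand) hold a STAT motif 178 bases before the start. Capitals mark the matches, the pair in Zfp42 on the reverse strand.
Zfp42: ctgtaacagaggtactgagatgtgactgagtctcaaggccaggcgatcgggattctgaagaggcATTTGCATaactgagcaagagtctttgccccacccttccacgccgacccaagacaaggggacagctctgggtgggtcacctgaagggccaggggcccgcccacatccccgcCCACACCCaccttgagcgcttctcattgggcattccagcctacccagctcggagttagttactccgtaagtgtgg
Esrrb: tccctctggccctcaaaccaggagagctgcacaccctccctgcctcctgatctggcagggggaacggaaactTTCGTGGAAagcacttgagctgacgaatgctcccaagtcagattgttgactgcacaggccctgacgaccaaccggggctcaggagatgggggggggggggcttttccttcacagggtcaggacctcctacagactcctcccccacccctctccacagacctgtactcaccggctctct
Of all 32851 windows 1.74% hold the octamer, 3.56% the KLF motif and 8.3% the STAT motif. Binding at these letters was not measured here. None of the 8 windows held the ESRRB, T-box or TFCP2L1-type letters, which 4.72%, 1.28% and 3.44% of all windows hold.

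Comparisons that leave out the parental array set the ESC-like cells against each other. Between the heterologous and the homologous array 9 of the 10 genes were lower in the heterologous one, as were 52.1% of all named genes, with a median difference of −0.50 against −0.01 over all named genes, and none passed 2-fold, which 0.647% of named genes did downward and 2.41% upward. Zfp42 (−0.85), Klf2 (−0.76) and Tfcp2l1 (−0.67) differed most, and Tbx3 went the other way (0.72, or 1.64-fold higher in the heterologous array). All 10 genes were higher in the co-injection mean than in the heterologous array. The number of lower genes was thus 0 of 10, against 32.3% of all named genes. The median difference was 0.64 against 0.07 over all named genes. Klf2 was 2.18-fold higher and alone past 2-fold, where 0.361% of named genes were, followed by Zfp42 (1.97-fold) and Tfcp2l1 (1.89-fold). With co-injection batch 1 alone 1 gene passed 2-fold in this comparison, and with batch 2 alone 3 did. The shares of named genes for a single batch were not counted here. At 1.5-fold either way 4 genes passed between the heterologous and homologous arrays and 7 between the co-injection mean and the heterologous array, where 8.67% and 8.02% of named genes did, and at 3-fold none, where 0.908% and 1.37% did. Both comparisons use the one heterologous array.

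Of the 10 genes 9 were higher in the co-injection mean than in the homologous array. Tcl1 was lower, as were 35.9% of all named genes. The median difference was 0.20 against 0.04 over all named genes. The share of all named genes inside the widest gap of the pair among the 10 genes (0.25, Tcl1) was not counted. For 6 genes (Esrrb, Klf5, Tfcp2l1, Nr0b1, Tcl1 and Zfp42) the difference was no larger than that gap. Tbx3 differed most: the co-injection mean was 2.51-fold higher than the homologous array, where 0.0752% of named genes were more than 2-fold higher. It was also the only one past 1.5-fold, where 1.47% of named genes were, and none passed 3-fold, where 0.115% were. Measured as the root mean square distance over the 10 genes, the homologous array lay 0.47 and 0.48 from the co-injection arrays, 0.57 from the heterologous array and 1.39 from parental ESCs. Over the named genes above the median value the same distances were 0.24, 0.22, 0.42 and 0.44. By these genes the heterologous array was nearer to the homologous array than the latter was to parental ESCs, and the co-injection arrays lay nearer to each other (0.18) than to any other array.

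Of 14 other genes of the naive state 3, 5 and 1 were more than 2-fold lower in homologous, heterologous and co-injection cells. Of all named genes 1.6%, 1.95% and 1.44% were. Dppa3 alone was more than 2-fold higher, in homologous and co-injection cells, where 1.45% and 0.647% of all named genes were. The list medians were −0.71, −0.74 and −0.25. Mael, a piRNA pathway gene, had differences of −2.40, −1.46 and −1.98, and Nr5a2, a nuclear receptor that binds the Pou5f1 promoter, had differences of −1.24, −1.25 and −0.30. Jam2 was also past 2-fold lower in the homologous array (−1.19), and Pecam1 (−1.44), Fgf4 (−1.11) and Tet2 (−1.05) in the heterologous array. Dppa3 (Stella) was higher in the homologous and co-injection cells (1.94 and 1.76) and at −0.21 in the heterologous array. Of the 10 core pluripotency factors, Pou5f1, Sox2, Nanog, Sall4, Lin28a, Utf1 and Tdgf1 are also among the ESC markers above. By contrast with the other naive genes, the core factors had medians of −0.07, −0.17 and −0.04 with none past 2-fold. Like 92.7% of all named genes, they stayed within 2-fold of parental ESCs in all 4 ESC-like arrays. Nanog, which links the core to the naive factors, was the lowest of them at −0.60, −0.72 and −0.66, and Sox2 was at 0.06, −0.60 and 0.01.

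Of 15 genes of the primed epiblast, 4 were more than 2-fold higher and 1 lower in the homologous array, against 1.45% and 1.6% of all named genes. In the heterologous array 3 were higher and 2 lower, against 3.98% and 1.95%. In the co-injection mean 2 were higher and 1 lower, against 0.647% and 1.44%. The de novo methyltransferase gene Dnmt3a was higher in each (1.10, 1.43 and 1.32), and Zic2 in the homologous and heterologous arrays (1.02 and 1.24). Cldn6, a tight junction gene, was higher in homologous and co-injection cells (1.22 and 1.23) and at −0.41 in the heterologous array. Car14 was more than 2-fold higher in the homologous array (1.15) and Sox4 in the heterologous one (1.24). Foxd3, which this list holds but which naive ESCs also express, was lower in each (−1.84, −1.39 and −1.02). Otx2, a factor that drives the exit from the naive state, was at 0.48 and 0.19 in the homologous and co-injection cells and at −1.51 in the heterologous array. Fgf5, a defining primed gene, was within 0.28 of parental ESCs in all 3 comparisons.

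PRDM14 is known to repress a few genes together with CBFA2T2 and the Polycomb complex. These genes and the partners were read beside the low Prdm14 values. Fgfr2 had differences of 1.20, 0.68 and 0.91 in homologous, heterologous and co-injection cells, Fgfr1 of 0.68, 0.64 and 0.45, Dnmt3a as above and Dnmt3b of 0.76, 0.38 and 0.65. Dnmt3l, a cofactor of these enzymes, lay the other way at −0.54, −0.90 and −0.50, and Cbfa2t2 at −0.27, −0.55 and −0.32. Suz12 (−0.22, −0.47 and −0.32), Eed (−0.38, −0.45 and −0.19) and Uhrf1 (−0.28, −0.40 and −0.23) were lower as well. Of the 11 genes of this list 2 passed 2-fold in the homologous array and 1 in each of the others, all higher. Of all named genes 1.45%, 3.98% and 0.647% were more than 2-fold higher. The list medians were 0.08, −0.23 and 0.06. They mix partners such as Cbfa2t2, Suz12 and Eed with repressed genes, so they do not describe the repressed genes alone.

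By their medians, −0.02, 0.06 and −0.11, the 16 signaling genes of the LIF, Wnt and AKT pathways lay near parental ESCs. Akt1 alone passed 2-fold, in the heterologous array (1.33), where 3.98% of all named genes were more than 2-fold higher. Jak2 (0.75) and Jak1 (0.50) were also higher in that array. Stat3 differed by at most 0.09. Socs3, a direct target of STAT3 and its feedback inhibitor, was at −0.02 in the homologous array, −0.63 in the heterologous array and −0.15 in the co-injection mean, and Lifr, the LIF receptor, at −0.28, −0.68 and −0.19. The sources differ on the LIF concentration of the ESC-like cultures: the labels give the same for all cells, the methods a higher one for cells from teratomas. Its part in the differences was not tested.

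**Figure D3:**
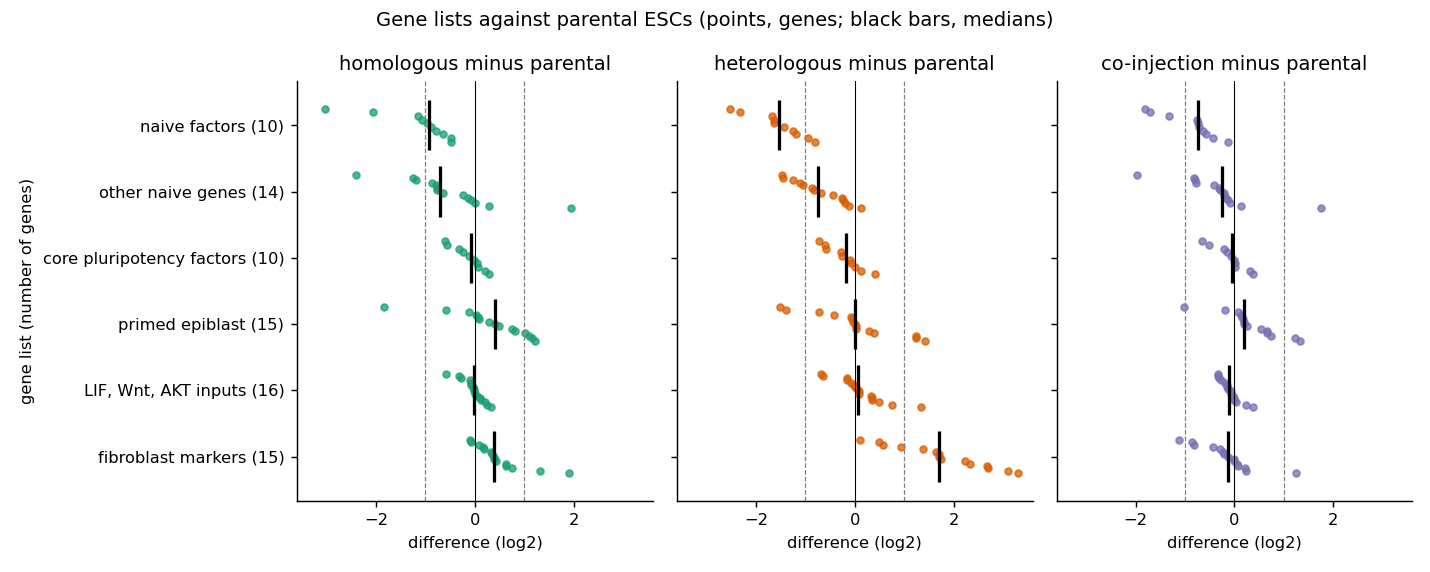
Differences from parental ESCs (log2, horizontal axis) of the genes of 6 lists (vertical axis) in homologous, heterologous and co-injection cells; points are genes, black bars list medians and dashed lines 2-fold. The naive factors have medians of −0.93, −1.53 and −0.73, the core factors −0.07, −0.17 and −0.04, and the fibroblast markers 0.39, 1.71 and −0.13.

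Relatives of the 10 genes mostly stayed within 2-fold, as did 92.7% of all named genes in all 4 ESC-like arrays. Of 42 genes of the same families, 2, 2 and 1 were more than 2-fold lower in homologous, heterologous and co-injection cells. Of all named genes 1.6%, 1.95% and 1.44% were. More than 2-fold higher were 1, 2 and 0 of the 42, and 1.45%, 3.98% and 0.647% of all named genes. Klf8, a repressor on the X chromosome, was lower in all 3 (−1.87, −2.67 and −1.85) and was also the gene nearest to Prdm14 in profile. Tbx20 had differences of −1.55, −1.19 and −0.89. In the heterologous array the mesenchymal Tbx15 (1.79) and Tbx18 (1.16) were higher, and Prdm1 (Blimp1) was more than 2-fold higher in the homologous array (1.09). The closest paralogs of Esrrb and Tfcp2l1 lay close to parental ESCs: Esrra, Esrrg, Tfcp2 and Ubp1 differed from them by no more than 0.19.

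Genes of like profile were sought by the root mean square distance between the 4 differences from parental ESCs, one per ESC-like array, over 11590 named genes above the median value. Nearest to the median profile of the 10 genes were Cd37 (distance 0.08), Npl (0.08) and Fancd2os (0.09). For Tbx3 it was Elobl (0.21), for Prdm14 Klf8 (0.13), for Esrrb B4galnt4 (0.07), for Klf2 Niban1 (0.15), for Tcl1 Shisa7 (0.12) and for Zfp42 Hmces (0.10). Klf4 was nearest to Ankrd45 (0.07), with Bmp4 (0.10), a ligand that supports naive ESCs in serum-free culture, among its first 3, and Tfcp2l1 to Npl (0.06). With 4 differences per gene this names genes and tests nothing.

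Each gene was also set beside its surroundings on the chromosome, the median of the 20 nearest named genes above the median value on each side in the order of the GRCm38.p6 annotation. For Tbx3, Prdm14, Klf4, Klf5 and Tfcp2l1 these medians lay between −0.07 and 0.12 in all 3 comparisons. Nr0b1 lies on the X chromosome, where its neighbors were lower too, with medians of −0.43 (homologous), −0.50 (heterologous) and −0.42 (co-injection) against −0.89, −0.94 and −0.74 for the gene. Esrrb and Tcl1 lie on chromosome 12 among genes that were higher in the heterologous array, by a median of 0.59 and 0.48, and had differences of −1.18 and −1.68 there themselves. Klf2 and Zfp42 lie on chromosome 8, where the neighbors of Klf2 had medians of 0.30, 0.11 and 0.23 in the same order and those of Zfp42 0.42, 0.08 and 0.29. Over all such genes of the whole chromosome the medians were −0.44, −0.47 and −0.50 for X and 0.26, 0.04 and 0.23 for chromosome 8. For chromosome 12 it was 0.24 in the heterologous array. The paper reported more aneuploidy in ESC-like cells than in parental ESCs. The part of chromosome number in these medians was not tested. Of the 36 to 40 neighbors of each gene, 0 to 3 were lower than the gene itself in the homologous and heterologous arrays, and 0 to 8 in the co-injection mean, the 8 being those of Nr0b1.

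**Figure D4:**
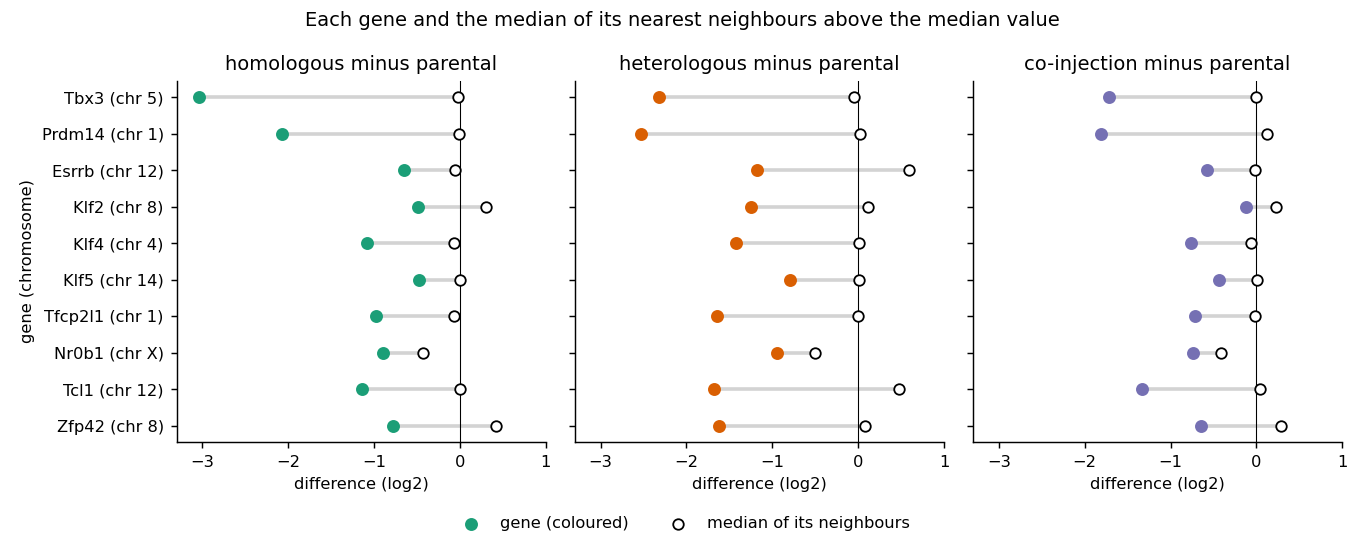
Difference from parental ESCs (log2, horizontal axis) of each of the 10 genes (filled points; chromosome in brackets on the vertical axis) and the median of its nearest neighbors on the chromosome (open points). Each gene lies below its neighbors in all 3 comparisons, and the neighbors of Nr0b1 are the ones farthest below 0, at −0.43, −0.50 and −0.42.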

How the data were processed

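RNA of 5 cell populations was measured on Affymetrix GeneChip Mouse Gene 1.0 ST arrays, with groups taken from the sample labels. The authors read probe intensities in GCOS, summarized them by RMA (quantile normalized) and deposited log2 values for 35556 probe sets per array; versions and a genome build were not given in the sources used here. These log2 values were used as deposited. Array medians lay between 7.48 and 7.54. Names came from the platform annotation (21789 with exactly 1 symbol), symbols were updated through gene identifiers, and a gene was represented by its brightest probe set.

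Conditions were compared by subtracting log2 values (the co-injection pair averaged), and more than 2-fold was counted, as in the study's methods. The labels call the co-injection arrays batches, and the paper counts them as separate lines of ESC-like cells. Whether the lines came from separate teratomas is not stated, so their SD may not cover the spread among teratomas. Conditions have 1 array otherwise, and the number of arrays limits the precision. Alternatives were 1.5-fold and 3-fold limits, cyclic loess, the mean over probe sets, leaving out each co-injection array, and limma 3.58.1 over all 5 arrays (eBayes, Benjamini-Hochberg adjustment, 1 residual degree of freedom). Scanner files were not used here, so background correction was not varied.

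The members, lists and rules were chosen with earlier results of these data known. Genes outside the 10 could be named as the 2 highest and 2 lowest of a list or as past 2-fold, and by likeness of profile, and not every such gene is named; other genes named beside them (among them Pou5f1, Fgf5, Fgfr1, Dnmt3b, Stat3 and Cbfa2t2) were chosen after their values were seen. Listed genes with no such probe set were left out. Python 3.11.15, pandas 2.3.3, numpy 2.4.6, matplotlib 3.10.9 and R 4.3.3 were used.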

Additional observations from a re-analysis of the deposited data

Results flagged for a closer look

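Among the 10 naive factors no result met a criterion for a closer look, since all lay below parental ESCs in every ESC-like array. The genes looked at were 159, the 10 and those of the lists together. A gene was taken if every array of a kind of ESC-like cells lay more than 1.5-fold above parental ESCs. Every array of another kind also had to lie more than 1.5-fold below. The differences between the kinds were not tested. Prdm1 differed by −1.79 between the heterologous and the homologous array (−0.70 and 1.09 from parental ESCs), and the trophoblast marker Tfap2c by −1.30 (−0.71 and 0.59). Of the fibroblast markers, Postn differed by −4.15, Dcn by −3.49 and Thy1 by −2.77 between the co-injection mean and the heterologous array, and Postn by −1.60 between the co-injection mean and the homologous array.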

How the results depend on the processing

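At a limit of 1.5-fold, 8, 10 and 7 of the 10 genes passed in homologous, heterologous and co-injection cells against parental ESCs. Of all named genes 9.51%, 13.2% and 6.91% did. Between the heterologous and homologous arrays 4 passed, where 8.67% of named genes did. The co-injection mean had 7 against the heterologous array (8.02% of named genes) and 1 against the homologous array (1.47%). At 3-fold the numbers were 2, 5 and 2 against parental ESCs, where 0.792%, 2.23% and 0.542% of named genes passed. In each comparison among ESC-like cells the number was 0, where 0.908%, 1.37% and 0.115% of named genes passed, in the order above. limma found 0 of the 10 genes, and 0 of 35556 probe sets, at an adjusted p under 0.05 in any of the 6 comparisons; at an unadjusted p under 0.05 it found 7, 10 and 6 of the 10 genes against parental ESCs, where 23.5%, 26.8% and 23.6% of all probe sets were. This fit takes the spread of the lone arrays from the co-injection pair. Leaving out co-injection batch 1 or 2 gave 3 genes past 2-fold against parental ESCs and 1 against the homologous array either way, and 1 to 3 against the heterologous array (3 without batch 1). With cyclic loess the counts at 2-fold were as before, medians of the 10 genes were −0.94, −1.48 and −0.74, and no difference moved by more than 0.05. Each gene had 1 probe set, so the mean over probe sets changed nothing. Leaving out the heterologous array, as was decided after seeing the data, could not change the count of genes below parental ESCs. All 10 genes were already below them in every ESC-like array. No paired analysis was possible because the groups compared share fewer than 2 replicate numbers.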
